A study of Mus musculus with 9 samples.

Results

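The endoplasmic reticulum (ER) folds the precursors of insulin, glucagon and somatostatin, and 39 genes of its folding, degradation and stress machinery were followed across 3 sorted subsets of mouse islet cells. The genes were a list of symbols matched to gene identifiers of the GRCm38 annotation, and all 39 were found among the 55536 genes of each deposited table. The list held 18 chaperones and folding enzymes, 10 genes of ER-associated degradation and 11 genes of stress sensing. Of these 11, 2 belong to the IRE1 arm, 2 to the ATF6 arm and 6 to the PERK arm, and Wfs1 makes up the rest. A filter on low counts kept 38 of the 39 and left out Derl3, a derlin of the degradation channel, which had 6, 17 and 6 counts in beta-enriched, 12, 6 and 8 counts in alpha-enriched and 6, 22 and 3 counts in delta-enriched libraries.

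The cells came from islets of C57B/L6 mice aged 12 weeks that were isolated, picked by hand, kept in culture overnight, dispersed and sorted by FACS on 2 surface proteins. Beta-enriched cells were gated as CD24low CD71+, alpha-enriched cells as CD24low CD71- and delta-enriched cells as CD24high, with 3 libraries each. The labels name no transgene, deletion or treatment, and all subsets share the same culture step. The labels do not say whether the libraries came from separate mice, so p-values measure only the spread between these libraries, which may be technical.

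Library totals ran from 5663141 to 9529920 expected counts. The hormone genes went with the labels: Ins2 averaged 56039 ± 22237 TPM (a level scaled for transcript length and library total) in beta-enriched, 4928 ± 1130.0 in alpha-enriched and 369 ± 381 in delta-enriched libraries. Gcg averaged 238 ± 83.9, 55454 ± 4526 and 2266 ± 1054 TPM in the same order. Sst averaged 1.71 ± 1.16, 44.4 ± 45.0 and 15384 ± 4925 TPM (SD, n = 3 each). Insulin transcripts were also counted in alpha-enriched libraries and glucagon transcripts in delta-enriched ones, so the subsets are called enriched. Beta replicate 2 stood apart, with 34.4% of its counts on 1 ribosomal RNA locus, against 3.15% to 5.37% in the other libraries. The summed level of 12 acinar cell markers, enzymes of a cell type with an extensive ER, was 12.4 to 30.1 TPM in beta-enriched, 34.6 to 193 TPM in alpha-enriched and 110.0 to 1554 TPM in delta-enriched libraries. Delta replicate 3 had the highest value. Markers of 2 other islet and pancreas cell types also moved with the subsets: the 2 PP cell markers summed to 88.4 to 143 TPM in beta-enriched, 4873 to 6157 TPM in alpha-enriched and 4669 to 9354 TPM in delta-enriched libraries. The 6 duct cell markers summed to 83.8 to 89.7, 198 to 375 and 34.3 to 98.02 TPM in the same order. The part of these cell types, and of beta and alpha cells outside their own subset, in the differences between subsets was not tested. Counts of the listed genes called in each comparison are given with and without beta replicate 2 and delta replicate 3. In bulk samples, fewer cells of a type and less RNA per cell cannot be told apart.

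An unfolded protein in the ER is bound by the chaperone BiP and by lectin chaperones, and disulfide isomerases and oxidases close its disulfide bonds. Proteins that fail to fold are recognised by mannosidase-like lectins and sent through the Sel1l-Hrd1 ligase complex to the cytosol for degradation, the process called ER-associated degradation. Load on this system is sensed by IRE1, which splices Xbp1 mRNA, by ATF6, which is cleaved to a transcription factor, and by the kinase PERK, which slows translation and raises Atf4. Beta cells are known to depend on all of them because proinsulin is made in such quantity.

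Promoter sequences were searched for the exact letters of an element through which ATF6 and XBP1 are known to act. It is the ER stress response element (ERSE, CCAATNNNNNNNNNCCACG, read on both strands). Sites with a changed letter or outside the window are not found this way, so a gene without a match may still carry one. RefSeq promoters of build GRCm38.p6, 250 bases before to 50 bases after the start, were matched for 34 of the 39 genes, 37 promoters in all. An ERSE was found in 10 of the 37 (27.0%), against 39 of all 32851 promoters of that length (0.119%). The 39 listed genes were chosen for their parts in ER folding, degradation and stress, so these shares are a description and not a test. Of the 10 genes with one, 8 were folding genes, 2 were degradation genes and 0 were sensor genes. The 8 were among 16 folding genes with a matched promoter and the 2 among 9 degradation genes, and 9 sensor genes had a matched promoter. Each site is printed on the strand of the motif, with the fixed letters of the element, which these 10 genes share, in capitals.
Hspa5: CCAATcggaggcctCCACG
Hsp90b1: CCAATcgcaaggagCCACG
Hsp90b1: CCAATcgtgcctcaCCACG
Calr: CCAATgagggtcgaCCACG
Canx: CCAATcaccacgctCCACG
Pdia6: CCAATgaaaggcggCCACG
Ero1lb: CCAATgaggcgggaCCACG
Dnajc3: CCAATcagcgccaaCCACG
Creld2: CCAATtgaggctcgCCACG
Syvn1: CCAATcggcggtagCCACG
Derl3: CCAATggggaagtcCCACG

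All of these sites lay before the start, from 212 bases before it in the first Hsp90b1 site to 26 bases before it at the inner end of the Syvn1 site. The related element ERSE-II (ATTGGNCCACG) was found in Dnajb11 and Herpud1 and in 0.0365% of all promoters, with no overlap with an ERSE. The XBP1 element TGACGTGG was found in Txndc5 and in 0.676% of all promoters, and the ATF4 element TGATGCAA in Herpud1 and in 0.895% of all promoters. The 250 bases before the start are printed for 4 genes on which the results turn, read 5′ to 3′ on the strand of the gene with motif letters in capitals: Hspa5, whose product BiP is the usual readout of the response, Ero1lb and Edem1, which differed most among folding and degradation genes, and Herpud1, whose level was highest in the delta-enriched subset. None of the 4 motifs was found in the Edem1 window.
Hspa5 promoter, chr2:34771840-34772089, plus strand: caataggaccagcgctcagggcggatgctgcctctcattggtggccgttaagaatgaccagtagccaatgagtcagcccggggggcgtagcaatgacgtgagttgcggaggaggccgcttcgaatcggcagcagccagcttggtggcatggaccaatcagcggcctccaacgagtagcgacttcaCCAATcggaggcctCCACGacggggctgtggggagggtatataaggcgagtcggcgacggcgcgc
Ero1lb promoter, chr13:12565633-12565882, plus strand: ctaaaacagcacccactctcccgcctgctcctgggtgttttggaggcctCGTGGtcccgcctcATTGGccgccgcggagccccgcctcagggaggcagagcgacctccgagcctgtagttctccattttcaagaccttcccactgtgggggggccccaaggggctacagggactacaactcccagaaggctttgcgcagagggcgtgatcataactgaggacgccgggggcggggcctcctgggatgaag
Edem1 promoter, chr6:108828391-108828640, plus strand: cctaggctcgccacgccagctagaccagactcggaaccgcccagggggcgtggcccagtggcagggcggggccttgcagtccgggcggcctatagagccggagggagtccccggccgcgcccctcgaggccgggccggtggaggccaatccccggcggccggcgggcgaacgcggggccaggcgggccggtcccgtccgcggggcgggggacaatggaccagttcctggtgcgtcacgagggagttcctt
Herpud1 promoter, chr8:94386179-94386428, plus strand: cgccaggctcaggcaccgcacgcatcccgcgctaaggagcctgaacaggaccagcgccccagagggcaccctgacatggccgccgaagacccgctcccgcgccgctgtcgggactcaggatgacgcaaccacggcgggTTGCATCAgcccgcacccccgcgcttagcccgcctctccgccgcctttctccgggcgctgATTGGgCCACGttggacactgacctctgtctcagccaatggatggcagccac

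Most of the 38 genes were highest in the beta-enriched subset. By mean CPM (a level scaled for library total and TMM factor, not for length), 31 were highest in beta-enriched, 1 in alpha-enriched and 6 in delta-enriched libraries, whereas of all 15896 genes tested 33.2%, 30.9% and 35.9% were highest in these subsets. These means include beta replicate 2, the highest beta-enriched library for 28 of the 38 genes (34.2% of all genes). The count was not repeated without it. In 19 of the 38 each of the 3 beta-enriched libraries lay above all 6 others, which held for 13.0% of all genes. The corresponding pattern for delta-enriched libraries was found for Herpud1 alone among the 38 (10.8% of all genes) and for alpha-enriched libraries for none of them (7.84% of all genes).

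Against alpha-enriched libraries, 29 of the 38 genes were higher in beta-enriched libraries at an adjusted p under 0.05 (edgeR's quasi-likelihood test, Benjamini-Hochberg over all genes), and 0 were lower. The background was 26.6% of all genes called in this comparison, 14.8% higher and 11.9% lower. At an unadjusted p under 0.05 the counts were 30 higher and 0 lower in edgeR, and DESeq2 called 29 higher and 0 lower. By role, 14 of 18 folding genes, 8 of 9 degradation genes and 7 of 11 sensor genes were higher. The median log2 fold change of the 38 was 0.72, against -0.02 over all genes, and the libraries did not overlap for 32 of them, all higher in beta-enriched libraries (23.6% of all genes). Without beta replicate 2, 22 genes were higher and 0 lower, made up of 10 folding, 5 degradation and 7 sensor genes, with 10.5% of all genes called higher, 8.71% called lower and the median of the 38 at 0.54. Without both this library and delta replicate 3, 23 were higher and 0 lower, with 10.8% and 8.95% of all genes called in these directions. With no scaling factors, which moved the median of all genes to -0.25, 11 of the 38 were higher and 0 lower.

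Against delta-enriched libraries, 21 of the 38 were higher in beta-enriched libraries and 0 were lower by edgeR. The background was 30.6% of all genes called, 15.4% higher and 15.3% lower. At an unadjusted p under 0.05 the counts were 22 higher and 2 lower, and DESeq2 called 21 higher and 2 lower, the 2 being Txndc5 and Herpud1. By role, 11 of 18 folding, 6 of 9 degradation and 4 of 11 sensor genes were higher, and the median log2 fold change was 0.50, against -0.02 over all genes. Libraries did not overlap for 20 genes, 19 higher (21.4% of all genes) and Herpud1 lower (21.1%) in beta-enriched libraries. Without beta replicate 2, 14 were higher and Txndc5 was lower, against 11.5% and 12.0% of all genes, and without both beta replicate 2 and delta replicate 3, 12 were higher and Txndc5 and Herpud1 were lower, against 11.2% and 11.3%. With no scaling factors, which moved the median of all genes to -0.41, 6 were higher and Hsp90b1, Txndc5 and Herpud1 were lower.

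Between alpha- and delta-enriched libraries, 10 of the 38 differed, 2 higher and 8 lower in alpha-enriched libraries, against a background of 24.3% of all genes called, 11.0% higher and 13.3% lower. Ero1lb and Derl2 were the 2 higher genes. Txndc5, Dnajb9, Dnajc10, Herpud1, Xbp1, Ern1, Atf4 and Wfs1 were the 8 lower genes. The median log2 fold change was -0.18, against -0.01 over all genes. Without beta replicate 2, which enters the shared estimate of the spread, 2 were higher and 9 lower, against 9.49% and 11.9% of all genes. Without delta replicate 3 as well, 2 were higher and 8 lower, against 9.27% and 10.8%. The 3 comparisons share libraries, so their values are given side by side and are not independent of each other.

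**Figure D1:**
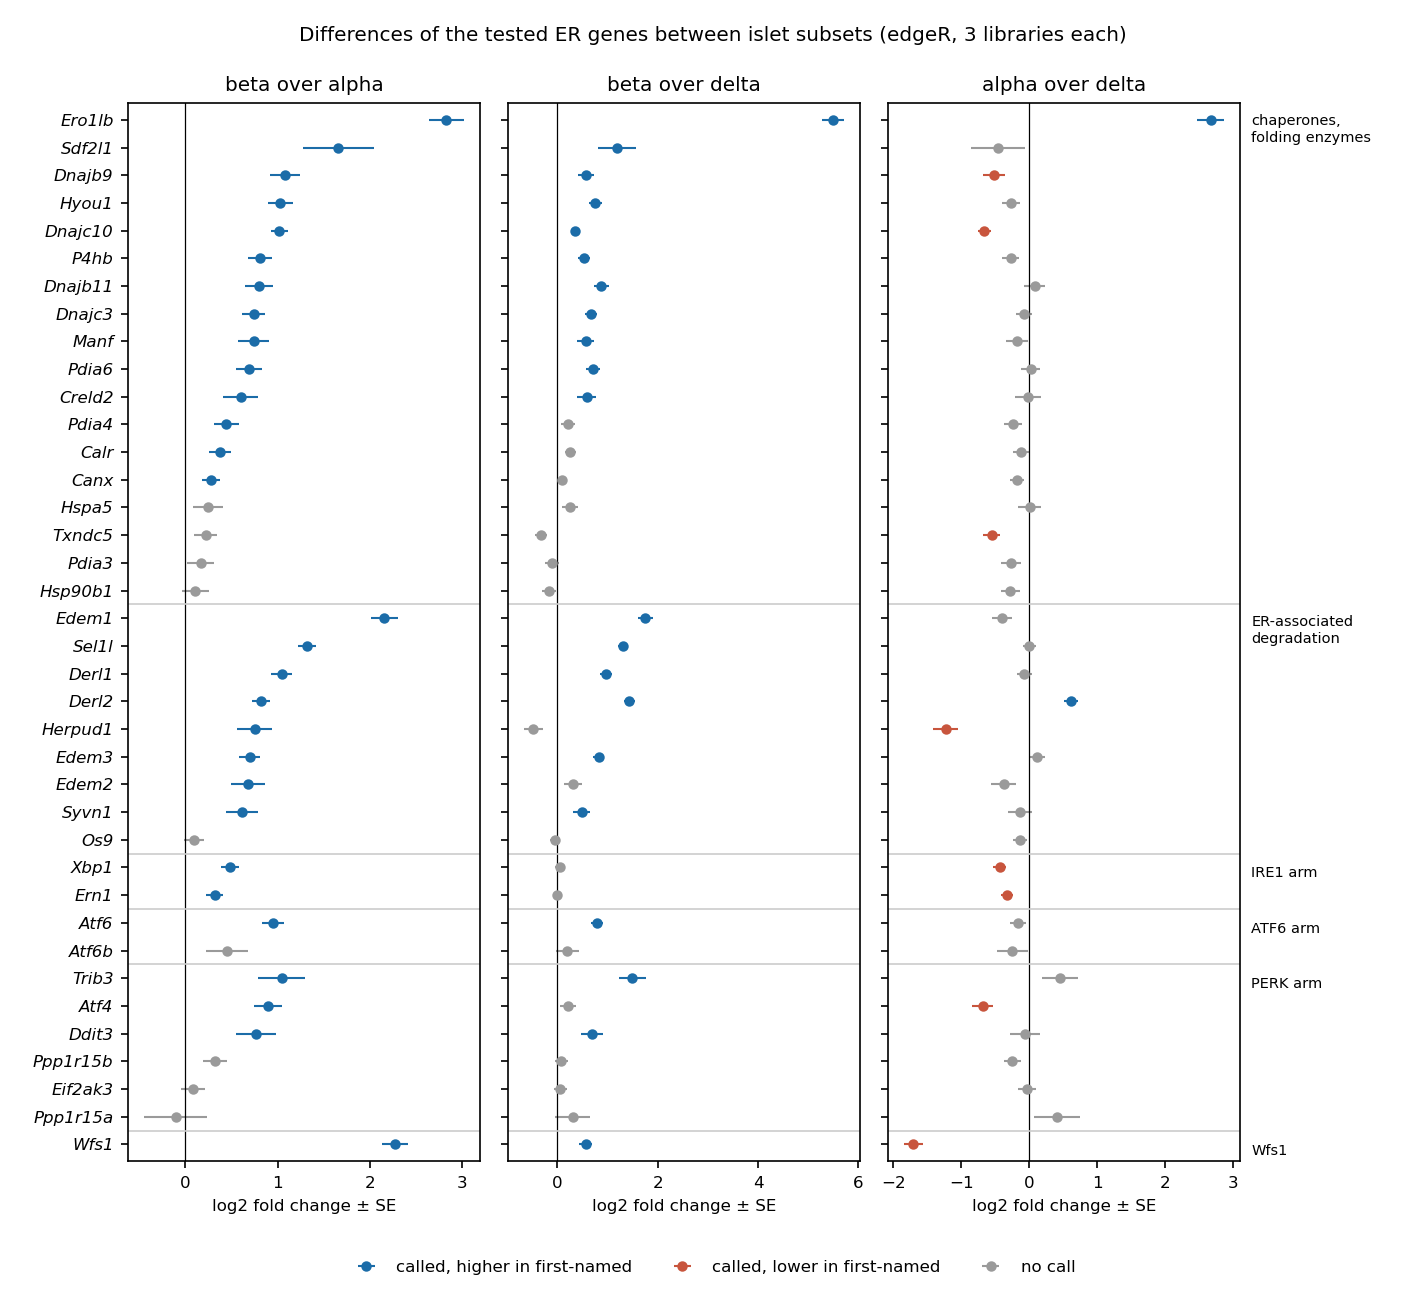
Log2 fold change (x axis) with its standard error for each of the 38 tested genes (rows, grouped by role) in 3 comparisons; colour marks genes past an adjusted p of 0.05. Points lie mostly right of 0 in the beta over alpha panel, where 29 were called higher, and on both sides of 0 in the alpha over delta panel, where 2 were called higher and 8 lower.

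Ero1lb, the oxidase that recharges disulfide isomerases and is known for its high level in the pancreas, differed most of all 38 genes (ENSMUSG00000057069, chromosome 13, 12565874 to 12611396, plus strand). It stood at 1927, 2118 and 1909 CPM in beta-enriched, 327, 225 and 287 CPM in alpha-enriched and 36.3, 36.7 and 58.7 CPM in delta-enriched libraries. The 3 subsets did not overlap, and every alpha-enriched library lay between the beta- and the delta-enriched ones. Ins2 had the same order, at 56039 ± 22237 TPM in beta-enriched, 4928 ± 1130 in alpha-enriched and 369 ± 381 in delta-enriched libraries. The part of beta cells among the alpha-enriched cells in the Ero1lb level was not tested. Beta-enriched libraries were 7.10-fold above alpha-enriched (log2 fold change 2.83, SE 0.19, adjusted p = 7.18e-07) and 45.1-fold above delta-enriched libraries (log2 fold change 5.49, SE 0.22, adjusted p = 6.95e-09), and alpha-enriched libraries were 6.35-fold above delta-enriched ones (log2 fold change 2.67, SE 0.19, adjusted p = 1.65e-06). All 3 calls held in each of the 23 alternatives tried. On the TPM scale Ero1lb averaged 263 ± 45.5 in beta-enriched libraries, beside 257 ± 8.22 TPM for Hspa5 and 251 ± 4.06 TPM for Hsp90b1. In delta-enriched libraries it averaged 5.45 ± 2.28 TPM, against 188 ± 10.8 TPM for Hspa5.

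The paralog Ero1l, the broadly expressed ER oxidase, was also higher in beta-enriched libraries but by less. It stood at 254, 217 and 244 CPM in beta-enriched, 132, 121 and 151 CPM in alpha-enriched and 84.8, 82.1 and 123 CPM in delta-enriched libraries. Ero1l had a log2 fold change of 0.82 for beta over alpha (SE 0.14, adjusted p = 0.000295) and of 1.30 for beta over delta (SE 0.14, adjusted p = 2.64e-06). Alpha exceeded delta by 0.48 (adjusted p = 0.0208), and that call was lost with adjusted p 0.0726 to 0.0959 without alpha replicate 3 or delta replicates 1 or 2. Of the TPM summed over both oxidases, Ero1lb made up 89.4 ± 1.35% in beta-enriched, 68.1 ± 3.47% in alpha-enriched and 31.1 ± 4.62% in delta-enriched libraries (SD, n = 3 each). The 3 subsets did not overlap in this share.

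**Figure D2:**
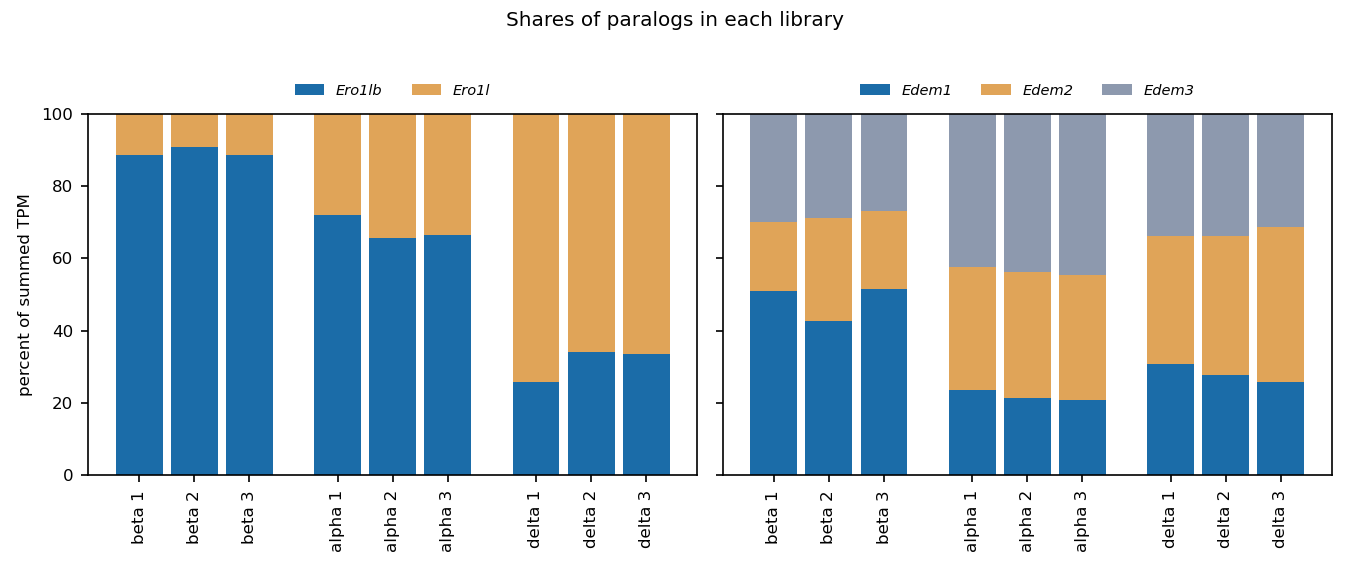
Share of the summed TPM (y axis, percent) held by each paralog in each of the 9 libraries (x axis), for the ER oxidases and for the Edem genes. Ero1lb holds most of the oxidase TPM in all beta- and alpha-enriched libraries and the smaller part in all delta-enriched ones. Edem1 is the largest Edem share in the 3 beta-enriched libraries and the smallest in the 6 others.

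The BiP chaperone itself was not called in any comparison. Hspa5 stood at 1096, 1423 and 969 CPM in beta-enriched, 1097, 1011 and 832 CPM in alpha-enriched and 1196, 861 and 875 CPM in delta-enriched libraries. The libraries of all 3 subsets overlapped on this scale. The 95% interval of the log2 fold change was -0.11 to 0.60 for beta over alpha, -0.11 to 0.61 for beta over delta and -0.35 to 0.36 for alpha over delta. Hsp90b1, the ER member of the HSP90 family, ranged from 960 to 1612 CPM with intervals of -0.20 to 0.42 and -0.48 to 0.14 for beta over alpha and beta over delta. Pdia3, the isomerase that works with the lectin chaperones, ranged from 652 to 1025 CPM with intervals of -0.15 to 0.48 and -0.42 to 0.21 for the same comparisons. On the TPM scale, which takes no TMM factor, Hspa5 averaged 257 ± 8.22 in beta-enriched, 233 ± 12.3 in alpha-enriched and 188 ± 10.8 in delta-enriched libraries (SD, n = 3 each). The subsets did not overlap on that scale, at 248 to 264, 219 to 240 and 176 to 196 TPM in the same order. Neither limma on log2 TPM nor edgeR under any other scaling called Hspa5. With no filter on low counts, beta over delta passed as higher in edgeR (log2 fold change 0.26, adjusted p = 0.0406).

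The J-domain cochaperones, which load clients onto BiP and set its ATPase, and the exchange factor Hyou1 were higher in beta-enriched libraries. Dnajc10, which also reduces disulfides of proteins bound for degradation, stood at 207, 227 and 209 CPM in beta-enriched, 107, 101 and 110.5 CPM in alpha-enriched and 173, 157 and 174 CPM in delta-enriched libraries. On the CPM scale the alpha-enriched libraries were the lowest, the beta-enriched ones the highest, and the subsets did not overlap. On the TPM scale delta-enriched libraries overlapped both other subsets. Delta replicate 2 (41.4 TPM) lay above beta replicate 2 (39.8 TPM), and alpha replicate 3 (38.8 TPM) above delta replicate 1 (20.85 TPM). Dnajc10 had a log2 fold change of 1.02 for beta over alpha (SE 0.09, adjusted p = 1.84e-07), of 0.35 for beta over delta (SE 0.09, adjusted p = 0.00626) and of -0.66 for alpha over delta (SE 0.09, adjusted p = 3.11e-05). Without beta replicate 2 the adjusted p of beta over delta was 0.0504, and with no scaling factors its log2 fold change was -0.04 (adjusted p = 0.92). In limma on log2(TPM + 1) none of the 3 comparisons of Dnajc10 was called (adjusted p = 0.0906, 0.304 and 0.568 in the same order). Hyou1, the nucleotide exchange factor of BiP, stood at 439, 655 and 437 CPM in beta-enriched, 267, 259 and 224 CPM in alpha-enriched and 301, 310.4 and 296 CPM in delta-enriched libraries. It was above both other subsets in all 3 beta-enriched libraries, and beta replicate 2 was the highest. Hyou1 had a log2 fold change of 1.03 for beta over alpha (SE 0.13, adjusted p = 2.55e-05) and of 0.75 for beta over delta (SE 0.13, adjusted p = 0.000405).

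Dnajb9, whose product keeps IRE1 in check by recruiting BiP, stood at 509, 503 and 384 CPM in beta-enriched, 258, 201 and 203 CPM in alpha-enriched and 393, 260.2 and 293 CPM in delta-enriched libraries. Beta- and alpha-enriched libraries did not overlap, while delta replicate 1 reached the range of the beta-enriched libraries. Dnajb9 had a log2 fold change of 1.08 for beta over alpha (SE 0.16, adjusted p = 0.000185), of 0.56 for beta over delta (SE 0.16, adjusted p = 0.0158) and of -0.52 for alpha over delta (SE 0.16, adjusted p = 0.0308). The second of these calls was lost with adjusted p 0.0561 to 0.0799 without beta replicates 1 or 2 or delta replicates 2 or 3. The third was lost with adjusted p 0.0947 to 0.12 without alpha replicates 2 or 3 or delta replicate 1. Dnajb11, the soluble J-protein that binds clients first, stood at 53.9, 68.5 and 47.5 CPM in beta-enriched, 36.5, 32.1 and 29.2 CPM in alpha-enriched and 31.1, 31.0 and 30.6 CPM in delta-enriched libraries. Dnajc3, which also carries the name p58IPK as an inhibitor of PERK, stood at 449, 559.5 and 435 CPM in beta-enriched, 311, 270.1 and 283 CPM in alpha-enriched and 364, 271 and 278 CPM in delta-enriched libraries. For both genes alpha- and delta-enriched libraries lay in 1 range and all beta-enriched libraries above it. The log2 fold changes of beta over alpha and beta over delta were 0.80 and 0.87 for Dnajb11 (adjusted p = 0.000686 and 0.000264) and 0.74 and 0.66 for Dnajc3 (adjusted p = 0.000182 and 0.000446).

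Sdf2l1, a partner of Dnajb11 in keeping clients soluble, had low and scattered levels. It stood at 20.7, 42.2 and 26.1 CPM in beta-enriched, 9.57, 10.6 and 7.90 CPM in alpha-enriched and 6.42, 21.6 and 10.9 CPM in delta-enriched libraries, and delta replicate 2 reached the range of beta-enriched libraries. Beta exceeded alpha by 1.65 on the log2 scale (SE 0.39, adjusted p = 0.00643) and delta by 1.19 (SE 0.38, adjusted p = 0.0311), and the call against delta was lost with adjusted p 0.0617 to 0.125 without beta replicate 2 or delta replicates 1 or 3.

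Among the disulfide isomerases, P4hb and Pdia6 were higher in beta-enriched libraries than in both other subsets, and the others were not. P4hb, the classical protein disulfide isomerase, stood at 474, 694 and 504 CPM in beta-enriched, 319, 341 and 297 CPM in alpha-enriched and 436, 351 and 371 CPM in delta-enriched libraries. All beta-enriched libraries lay above the 6 others, and beta replicate 2 was the highest of the 9. P4hb had a log2 fold change of 0.80 for beta over alpha (SE 0.13, adjusted p = 0.000188) and of 0.53 for beta over delta (SE 0.13, adjusted p = 0.00504). The beta over delta value of P4hb was 0.33 without beta replicate 2 (adjusted p = 0.0442) and 0.30, no longer called, without delta replicate 3 as well (adjusted p = 0.127). It was not called with no scaling factors (0.10, adjusted p = 0.785) or by limma on TPM with or without TMM factors. Pdia6, an isomerase that also acts on IRE1, stood at 215, 335 and 223 CPM in beta-enriched, 156, 166 and 156 CPM in alpha-enriched and 173, 139 and 161 CPM in delta-enriched libraries. The other 2 subsets shared 1 range below the beta-enriched libraries. Pdia6 had a log2 fold change of 0.69 for beta over alpha (SE 0.14, adjusted p = 0.00204) and of 0.71 for beta over delta (SE 0.14, adjusted p = 0.00142). Without beta replicate 2 these were 0.45 (adjusted p = 0.0101) and 0.47 (adjusted p = 0.00653). Pdia4 was higher in beta- than in alpha-enriched libraries (log2 fold change 0.45, SE 0.14, adjusted p = 0.0243), a call lost with adjusted p 0.0536 to 0.23 without beta replicate 2 or alpha replicates 2 or 3, and its value for beta over delta was 0.21 (adjusted p = 0.291).

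Txndc5, a further member of the isomerase family, was highest on average in delta-enriched libraries. It stood at 88.7, 112 and 90.6 CPM in beta-enriched, 84.0, 84.0 and 81.8 CPM in alpha-enriched and 103, 141 and 122 CPM in delta-enriched libraries. Alpha-enriched libraries lay below all others, and delta replicate 1 lay within the range of the beta-enriched libraries. Alpha was lower than delta (log2 fold change -0.55, SE 0.12, adjusted p = 0.00324). Beta over delta was -0.33 (SE 0.12, adjusted p = 0.0553), which passed the threshold as lower with adjusted p 0.00769 to 0.0208 without beta replicate 2 or delta replicate 1. It also passed as lower in an edgeR fit with the replicate number as a block (adjusted p = 0.0195).

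The lectin chaperones and the secreted or luminal factors showed smaller differences. Calr averaged 347 ± 68.9 CPM in beta-enriched, 267 ± 12.8 in alpha-enriched and 289.9 ± 23.2 in delta-enriched libraries (SD, n = 3 each), and Canx averaged 926 ± 91.4, 766 ± 44.8 and 869 ± 91.9 CPM. Both were higher in beta- than in alpha-enriched libraries. Beta over alpha was 0.38 on the log2 scale for Calr (SE 0.12, adjusted p = 0.0234) and 0.27 for Canx (SE 0.10, adjusted p = 0.0477). The Calr call was lost with adjusted p 0.0782 to 0.235 without beta replicate 2 or alpha replicates 1 or 3, and the Canx call with adjusted p 0.0596 to 0.279 without beta replicates 1 or 2, alpha replicates 1, 2 or 3 or delta replicate 3. Beta over delta was 0.26 for Calr (adjusted p = 0.111), which passed as higher with adjusted p 0.0331 without beta replicate 1, and 0.09 for Canx (adjusted p = 0.529). Manf, a small protein that stabilises BiP with its clients and is known to protect beta cells, stood at 119, 179.8 and 108 CPM in beta-enriched, 89.7, 82.2 and 71.7 CPM in alpha-enriched and 88.2, 102 and 85.3 CPM in delta-enriched libraries. Beta replicate 2 was far above the others of its subset, and beta over alpha was 0.74 on the log2 scale (SE 0.16, adjusted p = 0.00302), or 0.47 (adjusted p = 0.0183) without that library. The call against delta (0.56, SE 0.16, adjusted p = 0.0158) was lost with adjusted p 0.0608 to 0.126 without beta replicate 2 or delta replicates 1 or 3. Creld2, a secreted ER stress product, averaged 28.5 ± 6.95 CPM in beta-enriched, 18.8 ± 0.916 in alpha-enriched and 19.0 ± 2.66 in delta-enriched libraries. It passed against alpha (0.60, SE 0.19, adjusted p = 0.0289) and against delta (0.58, SE 0.19, adjusted p = 0.0305), and these calls were lost with adjusted p 0.0616 to 0.242 without beta replicate 2 or alpha replicates 1, 2 or 3, and with adjusted p 0.0604 to 0.236 without beta replicate 2 or delta replicates 1 or 2.

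Beta replicate 2 was the highest of the 3 beta-enriched libraries for 17 of the 18 folding genes. The ratio of its CPM to the mean of beta replicates 1 and 3 had a median of 1.38 over the folding genes, 1.15 over the 9 degradation genes, of which 7 were highest in it, and 1.05 over the 11 sensor genes, of which 4 were. Over all tested genes the median ratio was 0.998, and 34.2% were highest in this library. On the TPM scale, where the ribosomal locus stays in the total, the folding genes of beta replicate 2 summed to 1831 TPM, between the 1744 and 1998 TPM of beta replicates 1 and 3. It is the library with 34.4% of counts on a ribosomal RNA locus and with a TMM factor of 0.613, against 0.984 to 1.17 in the others, and whether these values have a part in its folding transcripts was not tested. Without it, 10 of 18 folding genes were higher in beta- than in alpha-enriched libraries (median log2 fold change 0.46) and 6 were higher than in delta-enriched ones (median 0.32).

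**Figure D3:**
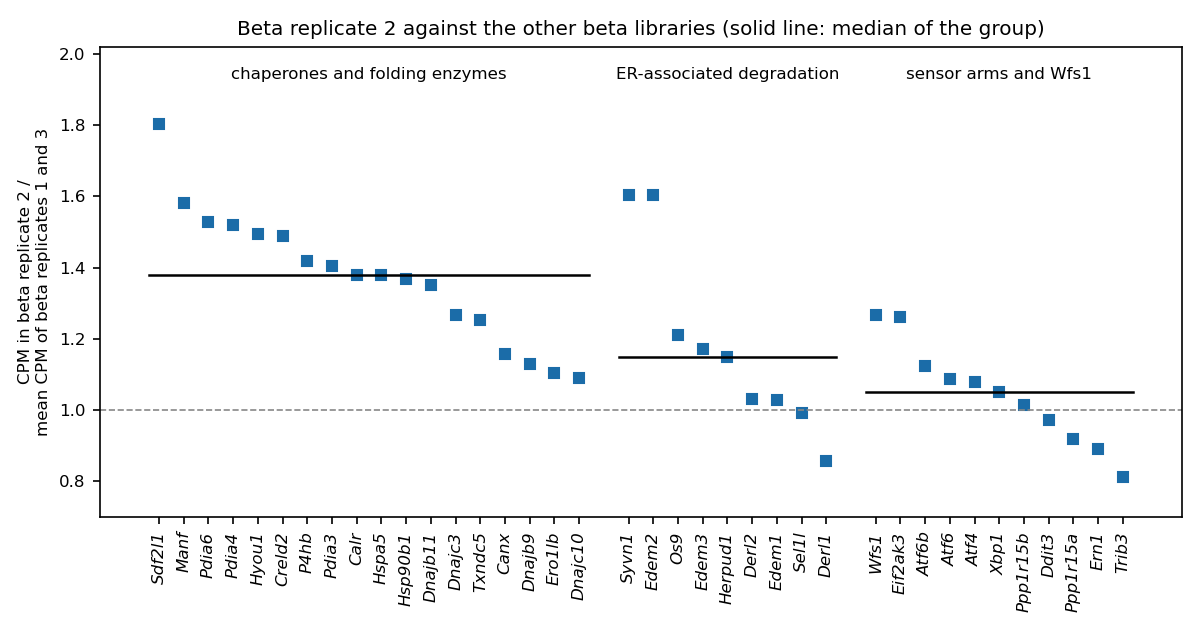
Ratio of the CPM of beta replicate 2 to the mean CPM of beta replicates 1 and 3 (y axis) for each tested gene (x axis), by role; the solid lines are group medians and the dashed line marks equality. All folding genes lie above 1, with a median of 1.38, whereas degradation and sensor genes lie on both sides of it, with medians of 1.15 and 1.05.

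In ER-associated degradation, 8 of 9 tested genes were higher in beta- than in alpha-enriched libraries and 6 of 9 than in delta-enriched ones. Edem1, which trims mannose residues to mark glycoproteins for disposal, led the group (ENSMUSG00000030104, chromosome 6, 108828641 to 108859356, plus strand). It stood at 196, 204 and 200.4 CPM in beta-enriched, 53.9, 36.8 and 43.7 CPM in alpha-enriched and 67.2, 64.6 and 46.5 CPM in delta-enriched libraries. The beta-enriched libraries were close to each other and far above every other library. Beta was 4.46-fold above alpha and 3.37-fold above delta, or 2.16 (SE 0.15, adjusted p = 8.41e-09) and 1.75 (SE 0.15, adjusted p = 7.85e-08) on the log2 scale. Alpha over delta was -0.40 (adjusted p = 0.0574), and it passed as lower with adjusted p 0.0106 to 0.0215 without alpha replicate 1 or delta replicate 3. It also passed as lower in an edgeR fit with the replicate number as a block (adjusted p = 0.0334).

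The Edem paralogs differed less between the subsets. Edem3 stood at 188, 209 and 169 CPM in beta-enriched, 128, 106 and 114 CPM in alpha-enriched and 121, 105 and 95.5 CPM in delta-enriched libraries. Its beta-enriched libraries lay above all others, and alpha- and delta-enriched libraries overlapped. Edem3 had a log2 fold change of 0.70 for beta over alpha (SE 0.11, adjusted p = 0.000154) and of 0.82 for beta over delta (SE 0.11, adjusted p = 2.71e-05). Edem2, which starts the mannose trimming, stood at 35.3, 60.8 and 40.6 CPM in beta-enriched, 32.2, 26.3 and 26.4 CPM in alpha-enriched and 35.8, 36.9 and 37.9 CPM in delta-enriched libraries. It was higher in beta- than in alpha-enriched libraries (log2 fold change 0.68, SE 0.18, adjusted p = 0.00926), a call that was lost without beta replicate 2 (adjusted p = 0.116), and beta over delta was 0.30 (adjusted p = 0.231). Edem1 thus held 48.4 ± 4.94% of the TPM summed over the 3 Edem genes in beta-enriched libraries, against 22.0 ± 1.45% in alpha-enriched and 28.2 ± 2.44% in delta-enriched libraries (SD, n = 3 each), without overlap between the subsets.

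Sel1l, the membrane adaptor of the Hrd1 ligase, was higher in beta-enriched libraries by similar amounts against both other subsets (ENSMUSG00000020964, chromosome 12, 91806043 to 91849157, minus strand). It stood at 328, 299.5 and 277 CPM in beta-enriched, 129, 123 and 111 CPM in alpha-enriched and 128, 119 and 117 CPM in delta-enriched libraries. All beta-enriched libraries lay far above the others, which shared 1 range. Sel1l had a log2 fold change of 1.31 for beta over alpha (SE 0.10, adjusted p = 1.57e-08) and of 1.31 for beta over delta (SE 0.10, adjusted p = 1.43e-08), and the 95% interval of alpha over delta was -0.20 to 0.21. Syvn1, which encodes the Hrd1 ubiquitin ligase that Sel1l holds, stood at 41.1, 69.6 and 45.7 CPM in beta-enriched, 32.6, 36.3 and 32.9 CPM in alpha-enriched and 36.3, 38.9 and 36.7 CPM in delta-enriched libraries. Beta replicate 2 was far above the other beta-enriched libraries, and Syvn1 had 0.62 for beta over alpha (SE 0.17, adjusted p = 0.0122) and 0.48 for beta over delta (SE 0.17, adjusted p = 0.0428). The first call was lost with adjusted p 0.0519 to 0.145 without beta replicate 2 or alpha replicate 1, and the second with adjusted p 0.0513 to 0.38 without beta replicate 2, alpha replicates 1, 2 or 3 or delta replicates 1, 2 or 3.

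The derlins, which form the channel out of the ER membrane, separated the subsets in different ways. Derl1 stood at 146, 123 and 141 CPM in beta-enriched, 73.9, 63.3 and 61.7 CPM in alpha-enriched and 66.5, 68.0 and 75.0 CPM in delta-enriched libraries. Alpha- and delta-enriched libraries overlapped below the beta-enriched ones. Derl1 had a log2 fold change of 1.04 for beta over alpha (SE 0.11, adjusted p = 1.59e-06) and of 0.97 for beta over delta (SE 0.11, adjusted p = 3.25e-06). Derl2 stood at 134, 136 and 129.6 CPM in beta-enriched, 76.6, 74.9 and 74.1 CPM in alpha-enriched and 45.8, 50.2 and 51.5 CPM in delta-enriched libraries (ENSMUSG00000018442, chromosome 11, 71007164 to 71019841, minus strand). Its 3 subsets formed 3 steps without overlap, beta over alpha at 0.82 (SE 0.10, adjusted p = 6.01e-06), beta over delta at 1.43 (SE 0.10, adjusted p = 7.69e-09) and alpha over delta at 0.61 (SE 0.10, adjusted p = 0.000205). Derl3 averaged 1.06 ± 0.587 TPM in beta-enriched, 0.750 ± 0.279 TPM in alpha-enriched and 0.793 ± 0.612 TPM in delta-enriched libraries.

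Herpud1, a stress-inducible scaffold of the Hrd1 complex, was the degradation gene with all 3 delta-enriched libraries above the 6 others (ENSMUSG00000031770, chromosome 8, 94386438 to 94395377, plus strand). It stood at 197, 201 and 153 CPM in beta-enriched, 139, 107 and 81.8 CPM in alpha-enriched and 299, 256 and 213 CPM in delta-enriched libraries. The order was delta, beta, alpha without overlap. Alpha-enriched libraries were lower than delta-enriched ones (log2 fold change -1.23, SE 0.19, adjusted p = 0.000441), and beta-enriched libraries were higher than alpha-enriched ones (0.75, SE 0.19, adjusted p = 0.0106), though not without beta replicate 2 (adjusted p = 0.0561). Beta over delta was -0.48 (SE 0.18, adjusted p = 0.0712), and it passed as lower with adjusted p 0.0232 to 0.0313 without alpha replicates 1 or 3 or delta replicate 3. An edgeR fit with the replicate number as a block also called Herpud1 lower (adjusted p = 0.000467). Its promoter holds 1 ERSE-II and 1 ATF4 element. The summed level of 10 immediate early and dissociation genes, which can respond to tissue dispersal, was 134 to 286 TPM in beta-enriched, 172 to 301 TPM in alpha-enriched and 274 to 344 TPM in delta-enriched libraries, and its part in the Herpud1 level was not tested. Os9, a lectin that hands clients to Sel1l, stood at 95.4, 112 and 90.4 CPM in beta-enriched, 96.0, 93.4 and 90.2 CPM in alpha-enriched and 106, 95.3 and 107 CPM in delta-enriched libraries and was called in none of the comparisons, with 95% intervals of -0.14 to 0.32, -0.28 to 0.18 and -0.37 to 0.09.

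**Figure D4:**
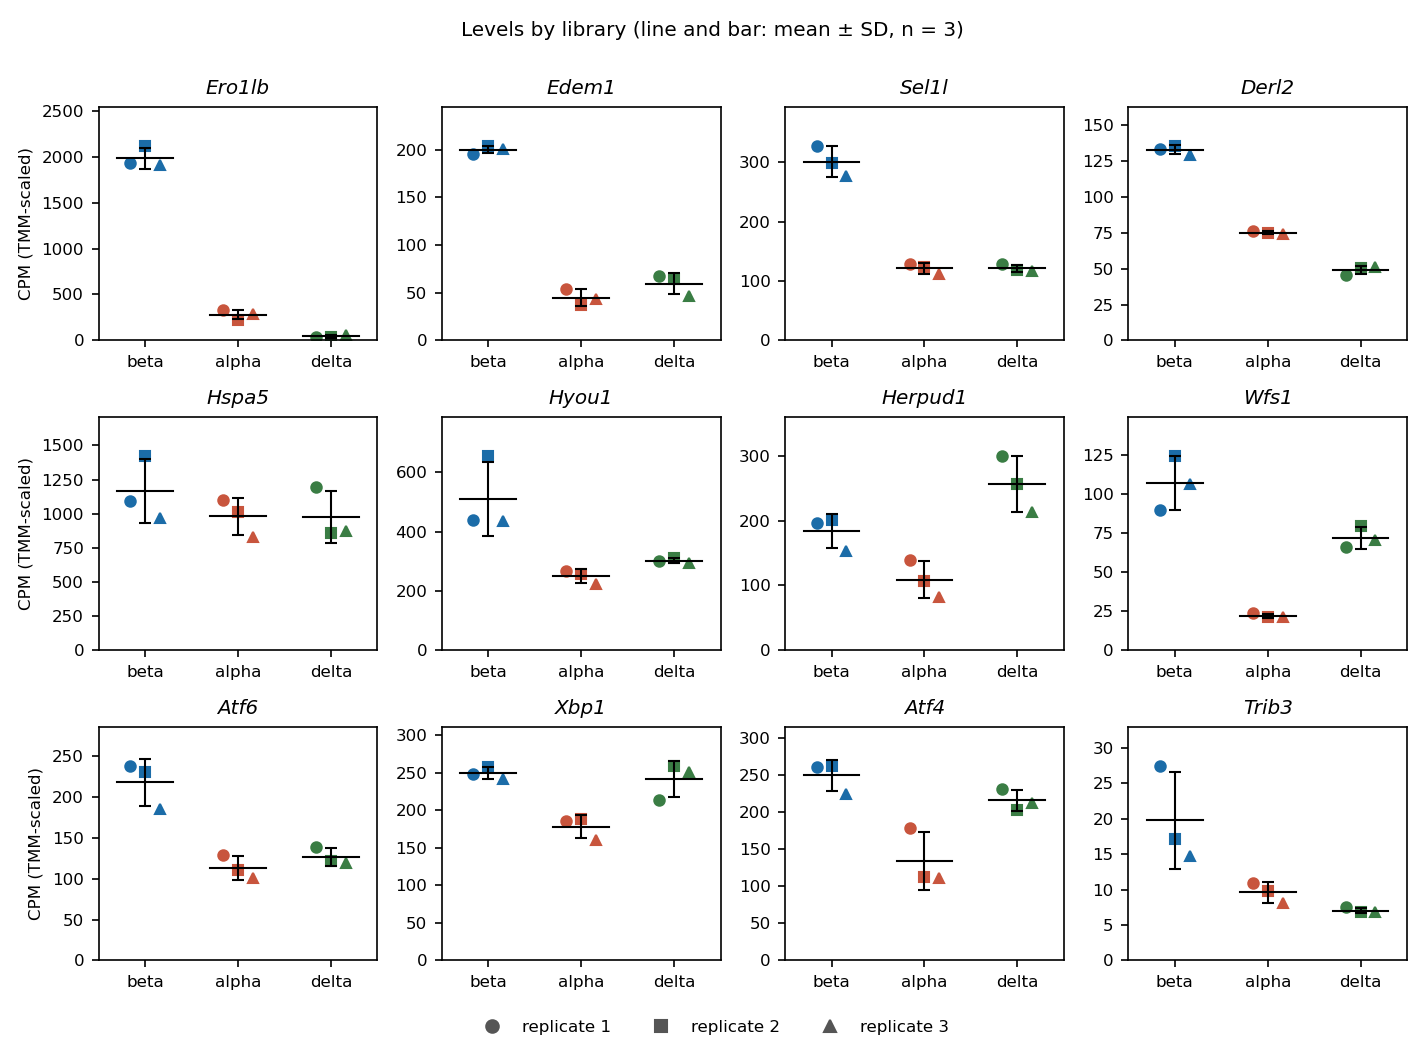
Level of 12 genes in each library (CPM after TMM scaling, y axes from 0), with subsets on the x axis, symbols for replicates, and mean ± SD as line and bar (n = 3). Ero1lb, Edem1, Sel1l and Derl2 are highest in all beta-enriched libraries, Hspa5 overlaps across the subsets, and Herpud1 is highest in the delta-enriched libraries.

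Genes of the 3 sensor arms differed in which subsets they separated, also within an arm, and no difference between arms was tested. In the IRE1 arm, Ern1, which encodes the sensor, stood at 302, 247 and 254 CPM in beta-enriched, 213, 207 and 222 CPM in alpha-enriched and 273, 271 and 262 CPM in delta-enriched libraries. Xbp1, whose mRNA it splices, stood at 249, 257 and 241 CPM in beta-enriched, 186, 188 and 161 CPM in alpha-enriched and 214, 259 and 251 CPM in delta-enriched libraries. For both, alpha-enriched libraries lay below all others on the CPM scale, and beta- and delta-enriched libraries overlapped. On the TPM scale Ern1 was highest in alpha replicate 3 (28.6 TPM). Xbp1 was lower in delta replicate 1 (50.5 TPM) than in the alpha-enriched libraries (55.6 to 68.5 TPM). Beta exceeded alpha for Xbp1 (log2 fold change 0.48, SE 0.10, adjusted p = 0.0011) and Ern1 (0.32, SE 0.09, adjusted p = 0.0151), and alpha was below delta for Xbp1 (-0.44, SE 0.10, adjusted p = 0.00294) and Ern1 (-0.33, SE 0.09, adjusted p = 0.0146). The 95% interval of beta over delta was -0.16 to 0.25 for Xbp1 and -0.20 to 0.19 for Ern1. The Ern1 calls were lost with adjusted p 0.0522 to 0.119 without beta replicate 1 or alpha replicates 1 or 2, and for alpha over delta with adjusted p 0.0587 to 0.0781 without alpha replicates 1 or 2. With no scaling factors, adjusted p for beta over alpha and alpha over delta was 0.507 and 0.0551 for Xbp1 and 0.805 and 0.152 for Ern1. In limma on log2(TPM + 1) it was 0.33 and 0.703 for Xbp1 and 0.779 and 0.933 for Ern1. None of these passed. Counts per gene do not tell spliced from unspliced Xbp1, so the activity of the arm was not measured.

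In the ATF6 arm, Atf6 itself was higher in beta-enriched libraries than in both other subsets. It stood at 238, 231 and 186 CPM in beta-enriched, 129, 110.2 and 100.5 CPM in alpha-enriched and 139, 122 and 119 CPM in delta-enriched libraries. Alpha- and delta-enriched libraries overlapped below all beta-enriched ones. Atf6 had a log2 fold change of 0.94 for beta over alpha (SE 0.12, adjusted p = 9.82e-06), of 0.78 for beta over delta (SE 0.12, adjusted p = 6.25e-05) and of -0.16 for alpha over delta (SE 0.12, adjusted p = 0.373). Atf6b, its weaker paralog, stood at 15.8, 20.4 and 20.5 CPM in beta-enriched, 12.8, 15.4 and 13.3 CPM in alpha-enriched and 11.2, 19.7 and 18.5 CPM in delta-enriched libraries and was not called in any comparison, with 95% intervals of -0.03 to 0.93 for beta over alpha and -0.28 to 0.68 for beta over delta. The 9 tested genes with an ERSE in their promoter had a median log2 fold change of 0.60 for beta over alpha, with 7 called higher, and the 24 tested genes with a promoter but no ERSE had a median of 0.75, with 18 called higher. For beta over delta the medians were 0.48 with 5 of 9 called higher and 0.33 with 12 of 24 called higher. Of all genes, 14.8% were called higher for beta over alpha and 15.4% for beta over delta. Without beta replicate 2, Calr, Canx, Creld2 and Syvn1 with an ERSE lost the call for beta over alpha, and Pdia4, Herpud1 and Edem2 without one. For beta over delta, Creld2 and Syvn1 with an ERSE lost it, and Dnajb9, Dnajc10, Sdf2l1 and Ddit3 without one. Then 10.5% and 11.5% of all genes were called higher in these comparisons. The group without an ERSE includes Dnajb11 and Herpud1, which carry an ERSE-II. Hyou1, Manf, Derl1, Atf6 and Ppp1r15b had no matched promoter and are in neither group.

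In the PERK arm, the sensor was not called in any comparison, and 3 of the genes downstream of it were higher in beta- than in alpha-enriched libraries. Eif2ak3, which encodes PERK, stood at 81.8, 96.7 and 71.5 CPM in beta-enriched, 77.6, 85.4 and 72.4 CPM in alpha-enriched and 71.3, 78.2 and 91.4 CPM in delta-enriched libraries. All 3 subsets overlapped, with 95% intervals of -0.19 to 0.36 for beta over alpha, -0.22 to 0.33 for beta over delta and -0.31 to 0.24 for alpha over delta. Atf4, the factor whose translation PERK raises, stood at 262, 263 and 225 CPM in beta-enriched, 179, 113 and 111 CPM in alpha-enriched and 232, 204 and 213 CPM in delta-enriched libraries. Alpha-enriched libraries were the lowest without overlap, below beta-enriched (log2 fold change 0.89, SE 0.15, adjusted p = 0.000467 for beta over alpha) and delta-enriched libraries (-0.69, SE 0.15, adjusted p = 0.00425 for alpha over delta), and the 95% interval of beta over delta was -0.12 to 0.54.

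Trib3, a pseudokinase induced by ATF4 and CHOP, and Ddit3, which encodes CHOP, were low and higher in beta-enriched libraries. Trib3 stood at 27.5, 17.1 and 14.7 CPM in beta-enriched, 10.9, 9.82 and 8.04 CPM in alpha-enriched and 7.51, 6.80 and 6.81 CPM in delta-enriched libraries. On the CPM scale the order was beta, alpha, delta without overlap, with beta replicate 1 the highest. On the TPM scale alpha replicate 3 (5.09 TPM) lay above beta replicate 2 (4.35 TPM). Delta replicate 2 (4.29 TPM) lay above alpha replicates 1 and 2 (2.82 and 2.60 TPM) on that scale. Trib3 had a log2 fold change of 1.49 for beta over delta (SE 0.26, adjusted p = 0.000277) and of 1.04 for beta over alpha (SE 0.26, adjusted p = 0.0051), and the call against alpha was lost without beta replicate 1 (adjusted p = 0.0829). That call was also lost with no scaling factors (adjusted p = 0.067) and in limma on log2(TPM + 1) (adjusted p = 0.205). Ddit3 stood at 34.2, 32.0 and 31.9 CPM in beta-enriched, 18.2, 20.8 and 18.9 CPM in alpha-enriched and 29.2, 14.4 and 17.0 CPM in delta-enriched libraries. Every beta-enriched library lay above the others, and delta replicate 1 stood above the other delta-enriched libraries. Ddit3 had a log2 fold change of 0.76 for beta over alpha (SE 0.22, adjusted p = 0.0143) and of 0.69 for beta over delta (SE 0.22, adjusted p = 0.0216). Without delta replicate 1, beta over delta was 1.06 (adjusted p = 0.00012). These calls were lost with adjusted p 0.0508 to 0.0648 without beta replicate 1 or alpha replicates 1 or 3, and with adjusted p 0.0603 to 0.0808 without beta replicates 1 or 2 or delta replicates 2 or 3. Exons of Ddit3 overlap those of Mars on the opposite strand over 3.97% of their bases, and whether the counting used strand was not stated by the labels.

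The phosphatase subunits that reverse PERK's effect were not called in any comparison. Ppp1r15a, which encodes the inducible GADD34, stood at 65.6, 44.7 and 31.7 CPM in beta-enriched, 67.4, 49.1 and 36.5 CPM in alpha-enriched and 53.0, 28.0 and 34.4 CPM in delta-enriched libraries. Replicate 1 was the highest library of each subset. Replicate 1 also had the highest summed level of the 10 immediate early and dissociation genes in each subset, at 286 TPM against 134 and 192 TPM in the other beta-enriched libraries, 301 TPM against 172 and 181 TPM in the other alpha-enriched ones and 344 TPM against 292 and 274 TPM in the other delta-enriched ones, and its part in the Ppp1r15a level was not tested. The 95% intervals were -0.89 to 0.67 for beta over alpha and -0.49 to 1.09 for beta over delta. Ppp1r15b, which encodes the constitutive CReP, stood at 123, 123 and 119 CPM in beta-enriched, 118, 90.8 and 83.2 CPM in alpha-enriched and 135, 109 and 103 CPM in delta-enriched libraries. Beta over alpha was 0.32 (adjusted p = 0.0856) and passed as higher with adjusted p 0.0166 to 0.038 without alpha replicate 1 or delta replicate 1, and alpha over delta was -0.25 (adjusted p = 0.198) and passed as lower without alpha replicate 1 (adjusted p = 0.0484). Beta over alpha also passed as higher in an edgeR fit with the replicate number as a block (adjusted p = 0.0164).

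Wfs1, the ER membrane protein mutated in Wolfram syndrome, a disease with early diabetes, was low in alpha-enriched libraries (ENSMUSG00000039474, chromosome 5, 36966104 to 36989205, minus strand). It stood at 90.01, 125 and 107 CPM in beta-enriched, 23.8, 21.3 and 21.2 CPM in alpha-enriched and 66.2, 79.99 and 70.5 CPM in delta-enriched libraries. The order was beta, delta, alpha, with no overlap between subsets and the alpha-enriched libraries far below the rest. Beta was 4.83-fold above alpha and 1.48-fold above delta, or 2.27 (SE 0.14, adjusted p = 1.3e-09) and 0.57 (SE 0.13, adjusted p = 0.0026) on the log2 scale, and alpha was below delta (-1.71, SE 0.14, adjusted p = 5.4e-08). Without both beta replicate 2 and delta replicate 3, beta over delta was 0.42 and not called (adjusted p = 0.0823). It was also not called with no scaling factors (0.15, adjusted p = 0.683). The same held for limma on log2 TPM with pseudocounts 1 and 0.1 (adjusted p = 0.102 and 0.115). Wfs1 had the smallest p of the 38 genes for beta over alpha.

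Levels summed over each role can be compared on the TPM scale, which corrects for transcript length and takes no TMM factor. The TPM summed over the 18 folding genes was 1858 ± 129 in beta-enriched, 1304 ± 161 in alpha-enriched and 1233 ± 91.5 in delta-enriched libraries (SD, n = 3 each). Over the 10 degradation genes it was 233 ± 33.4, 131 ± 15.8 and 159 ± 19.8 TPM in the same order, and over the 11 sensor genes 291 ± 48.3, 195 ± 23.8 and 220 ± 35.5 TPM. The folding and degradation sums of every beta-enriched library lay above those of the 6 others, and the sensor sums of beta- and delta-enriched libraries overlapped. Ero1lb alone gave 263 ± 45.5, 39.3 ± 10.3 and 5.45 ± 2.28 TPM of the folding sums in beta-, alpha- and delta-enriched libraries.

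Genes next to the 39 in the same pathways were taken as 4 further lists. Of 25 genes of translocation, signal peptide cleavage and N-glycosylation, the steps by which a protein enters the ER, 15 were higher and 0 lower in beta- than in alpha-enriched libraries (17 and 0 at an unadjusted p under 0.05, and 15 and 0 by DESeq2). Of the same 25, 11 were higher and Sec61a2, a translocon subunit, was lower than in delta-enriched libraries. The Sec61a2 call (-0.52, SE 0.17, adjusted p = 0.0303) was lost with adjusted p 0.0534 to 0.124 without beta replicates 1, 2 or 3 or delta replicates 1 or 2. Between alpha and delta, 0 were higher and 2 lower in alpha-enriched libraries (1 and 6 unadjusted, 0 and 2 by DESeq2). The called genes were 60.0%, 48.0% and 8.0% of the list in the 3 comparisons, against 26.6%, 30.6% and 24.3% of all genes. Without beta replicate 2 the counts of higher genes were 12 and 8 for the 2 beta comparisons. Spcs3, a signal peptidase subunit, stood at 591, 649 and 598 CPM in beta-enriched, 367, 282 and 297 CPM in alpha-enriched and 329, 264 and 299 CPM in delta-enriched libraries. All of its beta-enriched libraries lay above the others. Spcs3 had a log2 fold change of 0.96 for beta over alpha (SE 0.11, adjusted p = 2.7e-06) and of 1.04 for beta over delta (SE 0.11, adjusted p = 8.63e-07). Tram1, a translocon-associated protein, had values of 0.90 and 0.67 for beta over alpha and beta over delta (adjusted p = 1.69e-06 and 4.27e-05). Spcs2, a partner of Spcs3, had 0.88 and 0.60 (adjusted p = 1.03e-05 and 0.00046). Srpr, the receptor of the signal recognition particle, had 0.75 and 0.65 (adjusted p = 4.42e-05 and 0.000173). The oligosaccharyltransferase subunits Rpn2 and Ddost were lower in alpha- than in delta-enriched libraries (-0.51 and -0.53; adjusted p = 0.00179 and 0.0245), the Ddost call being lost with adjusted p 0.0637 to 0.104 without alpha replicates 1 or 3 or delta replicate 2.

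Of 28 tested further folding genes, 7 were higher and 2 lower in beta- than in alpha-enriched libraries, 4 higher and 3 lower than in delta-enriched ones, and 2 higher and 6 lower in alpha- than in delta-enriched ones. These were 32.1%, 25.0% and 28.6% of the list, near the 26.6%, 30.6% and 24.3% of all genes called in the same comparisons. Uggt2 and Prdx4 were the 2 lower genes of the first comparison. Ero1l, Ppib, Uggt1 and Txndc11 were the 4 higher and Pdia2, Sdf2 and Prdx4 the 3 lower genes of the second, and Ero1l and Ppib were the 2 higher genes of the third. The Uggt2 call was lost with adjusted p 0.0549 to 0.13 without beta replicates 2 or 3 or alpha replicates 2 or 3, and the Txndc11 call with adjusted p 0.0672 to 0.106 without beta replicate 2 or delta replicate 3. The count of 4 reached 10 without delta replicate 1 and 6 without beta replicate 3 or delta replicate 2. Uggt1, the folding sensor that returns glycoproteins to the lectin chaperones, stood at 414, 472 and 419 CPM in beta-enriched, 193, 183 and 185 CPM in alpha-enriched and 224, 243 and 239 CPM in delta-enriched libraries. Its beta-enriched libraries lay far above the rest, and delta-enriched ones above alpha-enriched ones. Uggt1 had a log2 fold change of 1.217 for beta over alpha (SE 0.09, adjusted p = 9.12e-09), of 0.89 for beta over delta (SE 0.09, adjusted p = 3.77e-07) and of -0.33 for alpha over delta (SE 0.09, adjusted p = 0.00857). Hspa13, an HSP70 family member, was higher in beta- than in alpha-enriched libraries (1.06, SE 0.14, adjusted p = 2.03e-05) and lower in alpha- than in delta-enriched ones (-0.73, SE 0.14, adjusted p = 0.000878). Prdx4, the ER peroxiredoxin that takes up the peroxide made by the oxidases, was lower in beta- than in alpha-enriched (-1.13, SE 0.25, adjusted p = 0.00278) and delta-enriched libraries (-1.41, SE 0.25, adjusted p = 0.00034). Sdf2, the paralog of Sdf2l1, was lower in alpha- than in delta-enriched libraries (-0.97, SE 0.23, adjusted p = 0.00399), and its value for beta over delta was -0.75 (adjusted p = 0.0168), a call lost with adjusted p 0.0751 to 0.0974 without beta replicates 1 or 3. Pdia2, the isomerase known from acinar cells, was at the edge of detection, with 0.257, 0.00 and 0.00 CPM in beta-enriched, 1.94, 0.00 and 0.564 CPM in alpha-enriched and 3.69, 0.00 and 8.87 CPM in delta-enriched libraries. It was highest in delta replicate 3, and its call for beta over delta (adjusted p = 0.0382) was lost with adjusted p 0.0585 to 0.132 without beta replicates 1, 2 or 3, alpha replicate 3 or delta replicates 1 or 3. These values stand beside the acinar marker sums of 12.4 to 30.1 TPM in beta-enriched and 110.0 to 1554 TPM in delta-enriched libraries, whose part in the Pdia2 level was not tested.

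Of 23 further degradation genes, 10 were higher and 0 lower in beta- than in alpha-enriched libraries (13 and 0 unadjusted, 10 and 0 by DESeq2), and 11 higher and 0 lower than in delta-enriched ones (12 and 0 unadjusted, 11 and 0 by DESeq2). Between alpha and delta, 2 were higher and 0 lower (3 and 1 unadjusted, 2 and 1 by DESeq2). The called genes were 43.5%, 47.8% and 8.70% of the list, against 26.6%, 30.6% and 24.3% of all genes, and the higher ones stand against 14.8%, 15.4% and 11.0%. The count of 10 fell to 5 without beta replicate 2 and to 6 without alpha replicate 3. Selenos and Selenok, selenoproteins of the derlin complex, had log2 fold changes of 1.01 and 0.68 for beta over alpha (adjusted p = 0.000581 and 0.000476). Ube2j1, the ER membrane ubiquitin-conjugating enzyme, Vcp, the ATPase that pulls proteins out of the membrane, and Ubxn4, which tethers it, had values of 0.78, 0.56 and 0.61 for beta over delta (adjusted p = 3.49e-05, 8.76e-05 and 0.00131). Vcp and Ube2j1 were also the 2 genes higher in alpha- than in delta-enriched libraries (0.33 and 0.39; adjusted p = 0.00976 and 0.0172), the Ube2j1 call being lost with adjusted p 0.0603 to 0.0925 without alpha replicate 1 or delta replicate 2.

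Of 29 tested further stress genes, 10 were higher and 1 lower in beta- than in alpha-enriched libraries, 6 higher and 1 lower than in delta-enriched ones, and 3 higher and 5 lower in alpha- than in delta-enriched ones. These were 37.9%, 24.1% and 27.6% of the list, against 26.6%, 30.6% and 24.3% of all genes, so the last 2 shares lie below and near the background. Eif2ak4 was the lower gene of the first comparison and Crebrf of the second. In the third, Eif2s1, Eif2b3 and Map3k5 were the 3 higher and Chac1, Vldlr, Creb3l1, Mbtps1 and Crebrf the 5 lower genes. Calls were lost with adjusted p 0.0536 to 0.0628 without beta replicate 3 or alpha replicate 2 for Eif2ak4, 0.0577 to 0.133 without beta replicates 2 or 3 or delta replicates 1 or 2 for Crebrf in the second comparison, 0.0595 to 0.0723 without alpha replicates 1 or 2 or delta replicates 2 or 3 for Eif2s1 and 0.0651 to 0.0968 without alpha replicates 1, 2 or 3 or delta replicates 2 or 3 for Mbtps1. The count of 6 was 10 without delta replicate 1 and 4 without beta replicate 1 or 2. Creb3l1, an ER-bound relative of ATF6, stood at 46.4, 53.1 and 44.7 CPM in beta-enriched, 8.54, 6.80 and 7.196 CPM in alpha-enriched and 55.2, 62.6 and 54.0 CPM in delta-enriched libraries. Delta-enriched libraries lay just above beta-enriched ones without overlap, and alpha-enriched libraries were far below both. Creb3l1 had a log2 fold change of 2.67 for beta over alpha (SE 0.16, adjusted p = 9.93e-10), of -0.25 for beta over delta (SE 0.14, adjusted p = 0.197) and of -2.92 for alpha over delta (SE 0.16, adjusted p = 4.33e-10). The ATF4 targets Chac1 and Vldlr were also lowest in alpha-enriched libraries, with values of 1.85 and 2.39 for beta over alpha (adjusted p = 1.23e-05 and 4.85e-08) and of -1.66 and -2.31 for alpha over delta (adjusted p = 4.68e-05 and 8.78e-08). Slc7a11, the cystine transporter that ATF4 raises, stood at 33.8, 24.5 and 15.0 CPM in beta-enriched, 6.15, 5.67 and 2.68 CPM in alpha-enriched and 6.83, 3.33 and 3.08 CPM in delta-enriched libraries. It was higher in beta-enriched libraries than in both other subsets. Slc7a11 had a log2 fold change of 2.33 for beta over alpha (SE 0.38, adjusted p = 0.000191) and of 2.47 for beta over delta (SE 0.38, adjusted p = 0.000111). Cebpg, a partner of ATF4, and Eif2b3, a subunit of the exchange factor on which PERK's signal acts, were higher in beta- than in delta-enriched libraries (0.74 and 1.10; adjusted p = 0.00169 and 0.000846).

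Atf3, an early factor downstream of ATF4, was not called in any comparison. It stood at 1.67, 0.343 and 0.330 CPM in beta-enriched, 19.9, 3.65 and 3.53 CPM in alpha-enriched and 18.4, 1.51 and 2.83 CPM in delta-enriched libraries. The first replicates of the alpha- and delta-enriched subsets stood far above all other libraries, and beta over alpha was -3.42 with SE 1.37 (adjusted p = 0.123) and beta over delta -3.17 with SE 1.38 (adjusted p = 0.137). These 2 libraries also had the highest summed level of immediate early and dissociation genes of their subsets, and its part in the Atf3 level was not tested. Atf3 passed as lower in beta- than in alpha-enriched libraries without delta replicate 1 (adjusted p = 0.0251) and than in delta-enriched libraries without alpha replicate 1 (adjusted p = 0.0357).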

How the data were processed

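RNA was sequenced from 9 libraries of FACS-enriched islet cells, 3 per subset. Total RNA was made into strand-specific, randomly primed libraries with depletion of ribosomal RNA and read on a NextSeq 500, per the labels' protocols. Per the submitters' processing notes, which name tools without their order, STAR 2.5.2b, RSEM, R 3.5.1 and DESeq2 1.22.1 were used with GRCm38.p6. The authors deposited expected counts from RSEM and TPM for each library. A separate table of normalised values for the whole series was not used here. Expected counts were rounded to whole numbers, and 48 of the 351 values of the 39 genes were not whole before that.

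Counts were fitted with edgeR 4.0.16 (robust quasi-likelihood test, TMM scaling, the default filter on low counts, R 4.3.3), with 1 coefficient per subset and all 9 libraries in 1 fit, and p-values were adjusted by Benjamini-Hochberg over the 15896 genes kept. A gene was called at an adjusted p under 0.05. Log2 fold changes are of the first subset named over the second, and standard errors follow from the fold change and its p. The common biological coefficient of variation was 0.212. Libraries held 5663141 to 9529920 counts, and 95% intervals include both counting error and the spread between libraries. limma 3.58.1 on log2 TPM (pseudocounts 1 and 0.1), DESeq2 1.42.0, other scalings and filters, and each library left out in turn were the alternatives. The fits were also tested on simulated counts.

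The 39 genes and the 4 further lists were chosen with earlier results of these data known. Every one of the 39 was described. Levels in each library were given for up to 10 genes of each role with the smallest p in any comparison and for all sensor genes. Up to 3 genes with the smallest p per comparison were named from each further list, with Ero1l and Atf3. The values of 1 gene of these lists are not reported here. Levels of Hspa5, Sdf2l1 and Pdia2, and other genes that make up a count of 5 or fewer, were added after their values were seen. Exons of 13 of the 39 overlap other genes, by at most 11.4% of their bases, and whether the counting used strand was not stated by the labels. Motifs were searched as exact letters in the RefSeq promoters.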

Additional observations from a re-analysis of the deposited data

How the results depend on the processing

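Of 2622 values for the 38 genes under the alternatives, 2391 stayed on the same side of the threshold. Another 192 lost the call and 38 gained one. In 1 more, Dnajc10 for beta over delta with no scaling factors, the call was lost and the sign changed (-0.0399, adjusted p = 0.92). Changes of sign among values without a call were not counted, and there were some. Hspa5 for beta over alpha, at 0.25, went as low as -0.025. In each of the 23 alternatives 10 genes stayed called for beta over alpha (Ero1lb, Dnajb9, Sdf2l1, Hyou1, Edem1, Sel1l, Derl1, Atf6, Atf4 and Wfs1), 6 for beta over delta (Ero1lb, Edem1, Sel1l, Derl1, Derl2 and Trib3) and 3 for alpha over delta (Ero1lb, Herpud1 and Wfs1). With 1 library left out, the count of called members ran from 22 to 30 for beta over alpha, 15 to 21 for beta over delta and 8 to 11 for alpha over delta, and that of all genes from 3210 to 4997, 3909 to 5260 and 3090 to 4334 for the same comparisons. With no scaling factors the members called were 11, against 29, for beta over alpha and 9 (6 higher, 3 lower), against 21, for beta over delta. All genes were then called 1047 higher and 1918 lower for beta over alpha (2345 and 1886 with TMM), 812 and 3628 for beta over delta (2442 and 2427 with TMM) and 775 and 1936 for alpha over delta (1748 and 2120 with TMM), with the median of all genes at -0.25, -0.41 and -0.17. Upper-quartile factors called 1959 higher and 2348 lower for beta over alpha. In limma on log2(TPM + 1) and log2(TPM + 0.1) the genes called were 1765 and 1819, against 4231, for beta over alpha, 2446 and 2480, against 4869, for beta over delta, and 1807 and 1782, against 3868, for alpha over delta, and the members 13 and 13 for beta over alpha and 3 and 3 for alpha over delta. TPM rescaled by TMM, an alternative chosen after seeing the data, gave 22, 17 and 8 members. The cause of these differences was not tested. Low counts limit what can be said of Derl3, Pdia2 and Atf3.

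The labels do not say that a replicate number marks a shared mouse or day, and the libraries were taken as unpaired. Correlations of deviations between libraries of the same number ran from 0.00085 to 0.112, under 0.1 for 8 of the 9 pairs, and between libraries of different numbers from -0.102 to 0.021. Beta replicate 2 with delta replicate 2 (0.00085) was the only same-number pair below the highest different-number value. The other same-number pairs ran from 0.0375 to 0.112, above every pair of different numbers. The correlations of same-numbered libraries were thus small but mostly higher, and what the number marks cannot be settled here. The main fit takes no account of it. A fit with the number as a replicate block called 30 members for beta over alpha, 23 for beta over delta and 11 for alpha over delta, and 4625, 5241 and 4294 genes in all. It lost none of the members' calls and added Ppp1r15b for beta over alpha (0.34, adjusted p = 0.0164), Txndc5 (-0.33, adjusted p = 0.0195) and Herpud1 (-0.48, adjusted p = 0.000467) for beta over delta and Edem1 for alpha over delta (-0.40, adjusted p = 0.0334).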
